A study of Mus musculus with 12 samples.

Results

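The resting difference between a pair of RAW264.7 macrophage lines was described: cells carrying a short hairpin RNA against Dclk1 (shDCLK1) and control cells, both untreated. The comparison used 6 of the 12 libraries of the study, 3 per line. In the other 6 the same lines had received 500 ng/ml of LPS (lipopolysaccharide, which TLR4 senses on bacteria) for 6 h. RAW264.7 is an established mouse macrophage-like cell line. Per the labels' protocols each line was monoclonal and stably expressed its shRNA, against DCLK1 or a negative control, although the knockdown label of the control samples reads none. With 1 clone per line, the shRNA and any other difference between the clones cannot be told apart. The labels do not say whether the 3 libraries of a line are separate cultures. P-values therefore measure the spread between these libraries, which may be technical. Macrophages at rest keep interferon-stimulated genes at a low level set by small amounts of type I interferon. Binding of interferon to its receptor activates JAK kinases and, through them, factors such as STAT2 and IRF9, which drive antiviral effectors, nucleic acid sensors and antigen presentation genes. NF-κB is the other main inflammatory pathway: the IKK kinases release it from IκB proteins after TLR signals. The study's title places DCLK1, a doublecortin-like kinase, at IKKβ in that pathway.

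Values are FPKM (fragments scaled for transcript length and library size) as deposited, and a gene was kept at 1 FPKM or more in at least 3 of the 6 libraries. Of 18190 genes, 10634 were kept. Differences are of mean log2(FPKM + 1), shDCLK1 minus control, which understates the change of low genes. Genes were called with limma at an adjusted p under 0.05. The 6 libraries were alike in size: FPKM sums ran from 457695 to 474482, and 10495 to 10619 genes reached 1 FPKM. Read totals are not given in the sources used here, and FPKM steps of 67 short RNA genes put relative depths between 0.982 and 1.01, by a choice of genes that favours equal depths. Libraries of the same line correlated at 0.994 to 0.996 over the kept genes, and those of different lines at 0.975 to 0.980. The 10 most abundant genes took 6.99% to 7.18% of the FPKM sum in control libraries and 6.53% to 6.69% in shDCLK1 libraries. Across the 6 libraries, lymphocyte, fibroblast and epithelial markers stayed below the filter.

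Dclk1 (Entrez Gene ID 13175), the target, was at the floor of the measurement. It was at 0.01, 0.01 and 0 FPKM in control libraries 1 to 3 and at 0.01, 0 and 0 FPKM in the shDCLK1 libraries. These values thus hold no check of the knockdown, and the lines are taken as labelled. Its relative Dclk2 was listed at 0 in all 6 libraries, and Dcx at 0.01 to 0.05 FPKM. Dclk3 was not analysed here.

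The untreated lines differed in many genes by small amounts and in few genes by large ones. Of the 10634 genes, 107 passed the filter with every control library under 1 FPKM and 29 with every shDCLK1 library under 1 FPKM, and such genes had to differ. In all, 4769 (44.8%) were called, 2199 (20.7%) higher and 2570 (24.2%) lower in shDCLK1 cells. The groups of 3 did not overlap in 5823 genes (54.8%), which included 4699 of the called genes. The median difference was 0.32 log2 units among higher genes and -0.22 among lower genes, against -0.03 over all kept genes. Large differences lay on the higher side: 186 genes (1.75%) were higher by 1 log2 unit or more and 19 (0.179%) were lower by as much. Of the 186, 37 were under 1 FPKM in every control library and had to differ. No such count was made for the 19. At 2 log2 units or more there were 31 higher and 4 lower genes. The skew was present among abundant genes too. At a mean of 100 FPKM or more, 251 of 785 genes were lower and 160 higher, yet 11 were higher by 1 log2 unit or more and 0 lower by as much. Of the 19 genes lower by 1 or more, 9 were miRNA or snoRNA genes, whose short length makes their FPKM coarse. The number of genes past 1 log2 unit depends on the pseudocount. It was 307 higher and 46 lower with a pseudocount of 0.01.

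**Figure D1:**
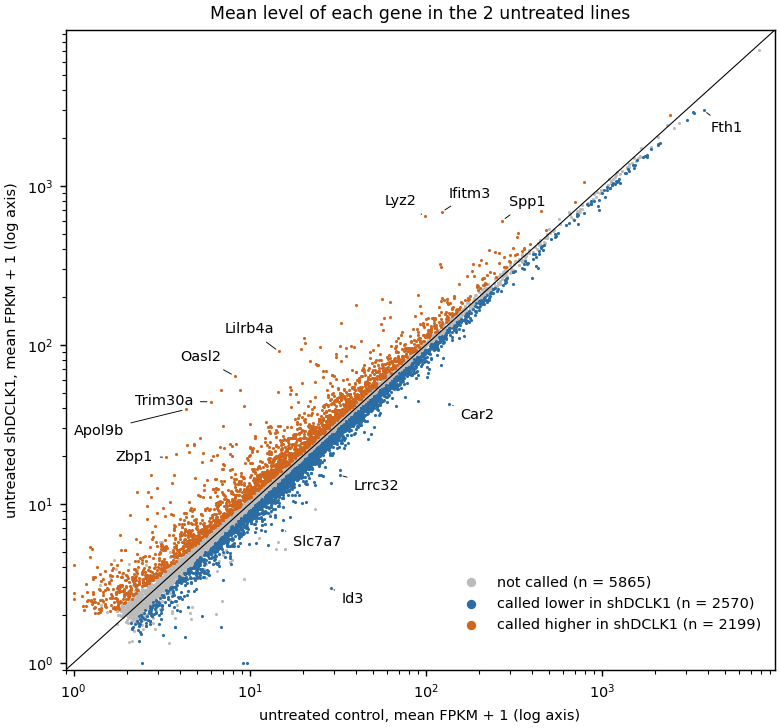
Mean FPKM + 1 of each kept gene in 3 untreated control libraries (horizontal, log axis) and 3 untreated shDCLK1 libraries (vertical, log axis), with the line of equal levels. The 2199 genes called higher are orange, the 2570 called lower blue and the 5865 not called grey, and the points farthest from the line lie mostly above it.

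The 12 genes with the largest differences above 0 (called, groups not overlapping, mean of 5 FPKM or more) were led by interferon-stimulated genes and a pair of lysozymes. Apol9b (Entrez Gene ID 71898), an interferon-induced apolipoprotein L gene, was at 3.30, 3.55 and 3.10 FPKM in control libraries and 38.71, 36.49 and 39.33 in shDCLK1 libraries. That is a ratio of 11.5 and a difference of 3.18 log2 units (SE 0.0517, adjusted p = 1.88e-09). Its near-identical neighbour Apol9a went from 5.82 ± 1.13 to 51.1 ± 1.76 FPKM (SD, n = 3), a difference of 2.94, and reads may have been shared between the pair. Oasl2, of the oligoadenylate synthetase family, was at 7.28, 7.4 and 6.91 against 61.95, 64.67 and 61.62 FPKM (2.96 log2 units, SE 0.0390, adjusted p = 1.05e-09). Trim30a, a TRIM ubiquitin ligase, was at 4.92, 4.93 and 5.12 against 41.39, 44.09 and 42.92 FPKM (2.87 log2 units). In each of these genes the lowest shDCLK1 library was several-fold above the highest control library.

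Lyz2, the myeloid lysozyme, was the largest difference among abundant genes. It was at 96.13, 94.51 and 101.41 FPKM in control libraries and 649.95, 644.41 and 631.72 in shDCLK1 libraries, a ratio of 6.60 (2.71 log2 units, SE 0.0349, adjusted p = 1.05e-09). Its paralogue Lyz1 moved with it, from 7.85 ± 0.947 to 50.7 ± 1.88 FPKM, and reads shared between the copies could not be separated. Lilrb4a, an inhibitory receptor of myeloid cells, went from 13.6 ± 1.01 to 89.9 ± 3.06 FPKM (2.64 log2 units). Zbp1, a sensor of Z-form nucleic acid, went from 2.35 ± 0.412 to 18.6 ± 0.825 FPKM (2.56 log2 units). Ifitm3, which blocks entry of viruses at membranes, went from 122 ± 3.93 to 683 ± 26.2 FPKM (2.48 log2 units). Ifit3, Ifi44l and Rsad2 (viperin) completed the 12, with differences of 2.47, 2.44 and 2.44 log2 units. The 12 genes kept their calls under every alternative run. Because these are bulk libraries, a higher level in all cells and a larger share of expressing cells cannot be told apart.

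**Figure D2:**
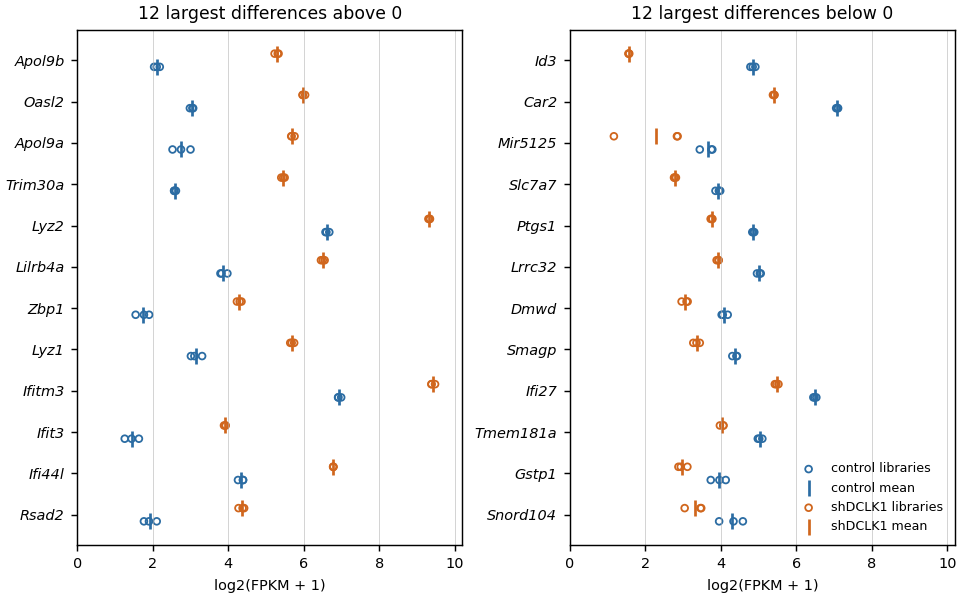
Level of each library, as log2(FPKM + 1), for the 12 genes with the largest called differences above 0 (left) and below 0 (right). Circles are the 3 control (blue) and 3 shDCLK1 (orange) libraries and bars their means. The 24 genes were chosen so that the circles of the lines do not overlap, and Mir5125 has the widest spread.

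Upstream sequence is shown for 4 of these genes that hold a match to the interferon-response motif before their start. Apol9a, the near-identical neighbour of Apol9b, holds such matches too and is not shown. The motif searched was GAAA, any 2 bases and GAAA again, on both strands, in RefSeq windows (GRCm38.p6) from 250 bases before to 50 after each start. Each line below holds the 250 bases before the start, on the gene's strand, with matches in capitals. All these matches are on the opposite strand, and the pair in Apol9b overlaps. The regions are chr15:77728822-77729071 (plus strand) for Apol9b, chr7:104465194-104465443 (minus) for Trim30a, chr19:34583279-34583528 (plus) for Ifit3 and chr12:26456453-26456702 (minus) for Rsad2.
Apol9b: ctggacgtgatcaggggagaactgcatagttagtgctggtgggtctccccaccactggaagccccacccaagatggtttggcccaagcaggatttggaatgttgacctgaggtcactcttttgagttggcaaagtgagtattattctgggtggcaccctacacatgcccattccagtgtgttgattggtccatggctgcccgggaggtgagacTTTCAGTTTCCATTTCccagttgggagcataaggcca
Trim30a: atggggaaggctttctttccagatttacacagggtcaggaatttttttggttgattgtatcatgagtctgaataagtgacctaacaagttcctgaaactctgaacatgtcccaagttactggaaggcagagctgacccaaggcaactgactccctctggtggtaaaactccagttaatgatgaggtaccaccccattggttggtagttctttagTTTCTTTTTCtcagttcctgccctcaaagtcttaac
Ifit3: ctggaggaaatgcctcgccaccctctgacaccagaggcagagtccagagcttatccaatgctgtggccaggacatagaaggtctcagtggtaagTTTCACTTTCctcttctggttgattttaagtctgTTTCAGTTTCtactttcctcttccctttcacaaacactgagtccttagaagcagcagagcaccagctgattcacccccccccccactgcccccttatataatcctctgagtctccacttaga
Rsad2: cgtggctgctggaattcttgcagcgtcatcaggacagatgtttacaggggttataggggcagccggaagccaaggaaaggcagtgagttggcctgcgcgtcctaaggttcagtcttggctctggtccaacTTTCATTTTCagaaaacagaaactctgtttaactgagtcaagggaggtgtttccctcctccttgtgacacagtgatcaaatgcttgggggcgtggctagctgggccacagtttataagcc

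Matches were more frequent among the genes with large positive differences. A window was found for 138 of the 186 genes higher by 1 log2 unit or more, and 43 of them (31.2%) held the motif. Among all 1746 higher genes with a window the share was 7.73%, among 2078 lower genes 2.41%, among 8472 kept genes 3.95% and among all 32851 RefSeq windows it was 3.44%. The motif TTCNNNGAA, bound by STAT dimers, was in 11.6% of the 138 genes and 8.10% of kept genes. The AP-1 motif TGANTCA was in 14.5% against 5.74%. In Ifitm3 the matches to the interferon-response motif lie after the start, as does the match in a further window of Trim30a. The windows of Oasl2, Ifi44l, Lyz2 and Lyz1 hold none, and no window was found for Lilrb4a and Zbp1. A match is a run of letters, not evidence of binding.

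Interferon-related genes were higher across nearly every family listed. In 10 lists of transducers, effectors, sensors and interferon-induced GTPases, with 102 kept genes, 86 were higher and 4 lower. Their median was 1.09 log2 units. Over all kept genes 20.7% were higher and 24.2% lower, the shares to set beside these lists, here and below. These lists supplied 55 of the 186 genes higher by 1 log2 unit or more. The lists were drawn up with results of these data known. Some members passed the filter through the shDCLK1 libraries alone, so they had to differ. There was 1 each among the transducers, the IFIT and MX effectors, the sensors and the Ifi200 family, beside GTPases given below. The IFIT, MX and viperin effectors, which block steps of viral growth, were higher in 13 of 13 kept genes (median 1.68). Mx1 was at 1.13, 1.32 and 1.46 against 10.01, 11.59 and 10.94 FPKM (2.36 log2 units, adjusted p = 7.42e-08), and Rsad2 at 2.73, 2.40 and 3.30 against 18.32, 20.43 and 19.83 FPKM. The ISG15 conjugation system, a ubiquitin-like modifier with its enzymes, was higher in 6 of 6 (median 1.64). Isg15 itself was at 18.38, 18.54 and 21.75 against 103.36, 98.53 and 102.75 FPKM, and its E2 enzyme Ube2l6 at 23.2 ± 1.13 against 73.6 ± 2.33. The OAS enzymes, which make the activator of RNase L, were higher in 8 of 9 (median 1.27), with Oas3 at 41.6 ± 1.11 against 105 ± 3.0 FPKM.

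Nucleic acid sensors were higher in 12 of 15 genes and lower in 1 (median 0.64). Ifih1 (MDA5) went from 6.70 ± 0.0872 to 22.7 ± 0.202 FPKM and Dhx58 (LGP2) from 17.2 ± 0.733 to 47.7 ± 2.51. The lower gene was Tmem173 (STING), at -0.40 log2 units, named after its value was seen. The Ifi200 family was higher in 6 of 7 (median 1.15), among them AI607873 at 24.1 ± 1.24 against 95.2 ± 4.33 FPKM. GBP and IRG GTPases, which act on membranes around intracellular microbes, were higher in 11 of 11 kept genes of 17 in the table (median 1.28). Of these, 5 were under 1 FPKM in every control library and passed the filter through the shDCLK1 libraries, so they had to differ. Irgm1 was at 29.81, 29.31 and 30.96 against 83.70, 80.65 and 82.93 FPKM, and Gbp6, one of the 5, was at 0.180 ± 0.0173 against 2.15 ± 0.341. TRIM ligases were higher in 7 of 8 (median 0.93), Schlafen genes in 6 of 6 (median 1.35) and PARP genes in 8 of 12 with 2 lower (median 0.61). Slfn4 was higher by 1.68 log2 units, and Parp14 was at 22.4 ± 0.883 against 57.0 ± 3.38 FPKM. The lower PARP genes were the DNA repair enzymes Parp1 and Parp2, at -0.19 and -0.15 log2 units.

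The transducers of the pathway were split between strongly higher and little changed genes. Of 16 JAK, STAT, IRF and feedback genes, 10 were higher and 1 lower (median 0.17). Usp18, the ISG15 protease that restrains the type I receptor, was at 18.57, 17.43 and 19.30 against 93.34, 89.50 and 95.73 FPKM (2.27 log2 units). Irf7 was at 31.41, 33.49 and 30.95 against 142.87, 129.31 and 134.38 FPKM (2.05 log2 units), and Stat2 was higher by 1.32. The feedback inhibitor Socs3 was the lower gene, at 11.2 ± 0.413 against 5.76 ± 0.384 FPKM (-0.86 log2 units), named after its value was seen. Among receptors Ifnar1 was higher by 0.31 and Ifngr1 lower, at -0.28 log2 units. Ifnar2, at -0.11 (adjusted p = 0.0416), lost its call without control library 1 or 3 or shDCLK1 library 2 or 3, with adjusted p from 0.0718 to 0.138.

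**Figure D3:**
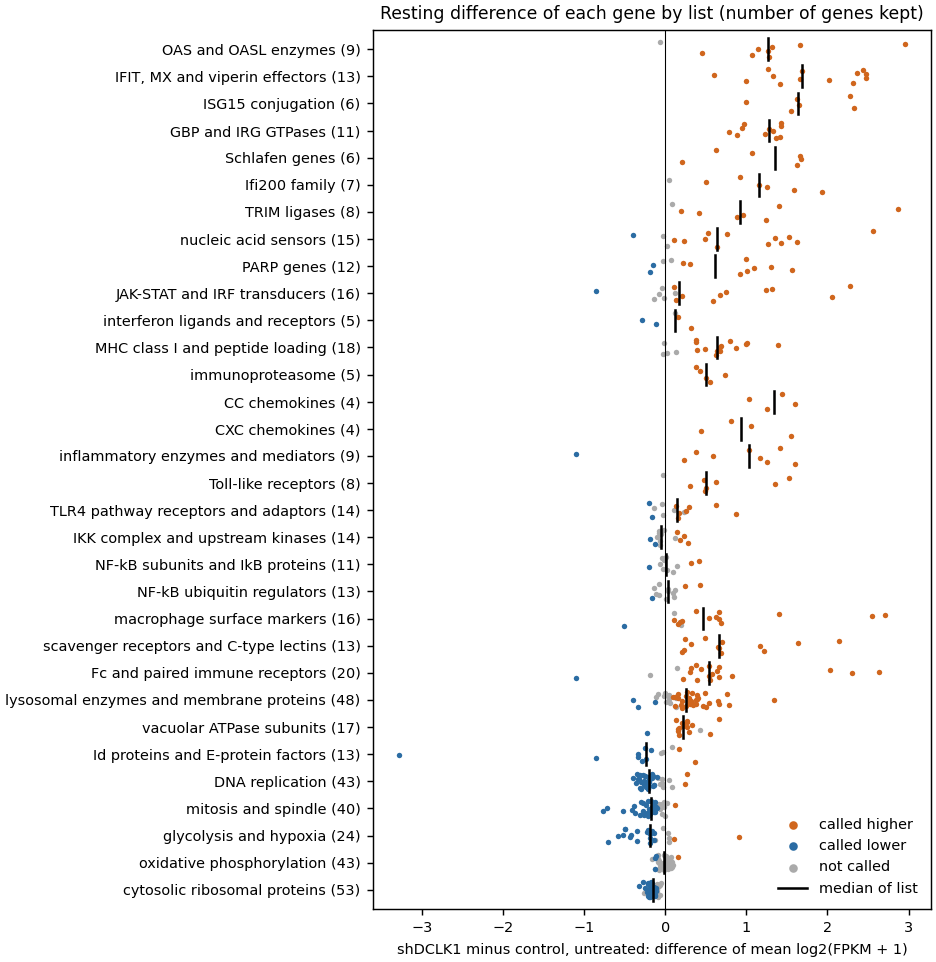
Difference of mean log2(FPKM + 1), shDCLK1 minus control, of each kept gene of 32 lists, with the number of genes in parentheses. Points are genes (orange called higher, blue called lower, grey not called) and bars list medians. Interferon-related lists lie mostly above 0, oxidative phosphorylation near it, and replication, mitosis, glycolysis and ribosomal genes mostly below it.

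Antigen presentation by class I was higher and class II was mixed, where 20.7% of all kept genes were higher and 24.2% lower. Of 18 class I and peptide loading genes 14 were higher and 0 lower (median 0.63). The peptide transporter Tap1 went from 22.3 ± 1.04 to 46.1 ± 1.07 FPKM, the nonclassical H2-T23 from 36.5 ± 1.53 to 97.4 ± 3.21, and the class I regulator Nlrc5 from 3.60 ± 0.229 to 8.20 ± 0.287. The 5 immunoproteasome genes were all higher (median 0.50), with Psmb9 at 0.74 log2 units. In class II, 4 of 8 genes were higher and 2 lower, and 1 was lower without control library 2 or 3 or shDCLK1 library 1 or 2. H2-Aa was at 13.27, 12.69 and 14.09 against 28, 27.41 and 26.76 FPKM (0.99 log2 units). Cd74, the invariant chain that escorts class II molecules, went the other way, at 394.98, 406.22 and 401.37 against 275.71, 264.18 and 251.39 FPKM (-0.60 log2 units, adjusted p = 5.02e-06). Co-stimulatory and checkpoint ligands were higher in 7 of 8, among them Cd274 (PD-L1) at 1.29 ± 0.182 against 2.69 ± 0.119 FPKM and Tnfsf9 (4-1BB ligand) at 38.8 ± 2.18 against 66.1 ± 1.96.

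Chemokines were higher without exception among those kept, 4 of 4 CC genes (median 1.34) and 4 of 4 CXC genes (median 0.93). The lists held 11 CC and 8 CXC genes, and the rest did not pass the filter. Higher calls made up 20.7% of all kept genes. Ccl4 was at 29.01, 30.64 and 34.48 against 100.12, 94.96 and 96.04 FPKM, and Ccl3 at 58.59, 59.73 and 66.83 against 145.82, 149.76 and 149.11. Cxcl10, a type I and II interferon target, was at 7.46, 5.86 and 7.34 against 21.98, 21.71 and 22.56 FPKM (1.56 log2 units, adjusted p = 9.92e-07). Ccl5 was at 2.73, 3.27 and 8.88 against 9.41, 9.16 and 11.75 FPKM, so control library 3 stood near the shDCLK1 group (1.03 log2 units, adjusted p = 0.0253). That call was lost without control library 1 or 2 or without shDCLK1 library 1 or 3, with adjusted p from 0.0557 to 0.0861. Control library 3 was also the highest of its line for Acod1, at 1.66, 1.46 and 3.49 FPKM, and for Il1b, at 0.04, 0.16 and 0.84, both strongly LPS-inducible genes. In shDCLK1 cells library 3 was likewise the highest for Ccl5, for Acod1 and for Il1b, at 0.83, 0.81 and 1.53 FPKM. It was not the highest for Cxcl2, at 5.23, 5.76 and 5.09, or for Tnf, at 54.35, 52.63 and 53.91. The part of library 3 of either line in these differences was not tested. Of inflammatory enzymes and mediators 8 of 9 were higher and 1 lower (median 1.04), and 1 of the 9 passed the filter through the shDCLK1 libraries alone. Acod1, which makes itaconate, reached 8.19, 7.50 and 9.46 FPKM in shDCLK1 libraries (1.60 log2 units). The protease inhibitor Slpi went from 11.3 ± 0.564 to 31.7 ± 1.13 FPKM, and Alox5 from 1.79 ± 0.157 to 5.67 ± 0.340. Cytokines and growth factors moved less: 6 of 14 were higher, 0 lower, and the median was 0.11. Csf1 was higher by 0.93 log2 units from a low level, 0.313 ± 0.0586 to 1.51 ± 0.135 FPKM. It passed the filter through the shDCLK1 libraries alone, so it had to differ. Il18 went from 14.5 ± 1.20 to 24.4 ± 2.03 FPKM.

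Components of the IKK and NF-κB machinery differed little at rest. Of 11 NF-κB subunits and IκB proteins 2 were higher and 1 lower, with a median of 0.00, and none differed by 0.5 log2 units. The subunits Rela, at 36.4 ± 0.771 against 35.3 ± 0.427 FPKM, and Nfkb1 were not called (adjusted p = 0.337 and 0.565). Nfkbia, the IκBα inhibitor, was at 91.48, 95.06 and 92.64 against 80.99, 80.49 and 80.38 FPKM (-0.20 log2 units, adjusted p = 5.59e-04), and Nfkbiz and Nfkbie were higher by 0.41 and 0.32. Of 14 IKK and upstream kinase genes 4 were higher and 2 lower (median -0.06). Ikbkb (Entrez Gene ID 16150), which encodes IKKβ, was at 24.35, 25.85 and 23.93 against 22.71, 22.14 and 23 FPKM. The groups did not overlap, and the difference was -0.12 log2 units (SE 0.0394, adjusted p = 0.0334). The call was lost when any library except control library 3 was left out, with adjusted p from 0.0577 to 0.108, and when libraries were scaled to equal sums (adjusted p = 0.0884). Ikbke, the interferon-linked IKK relative, was higher by 0.28. Regulators of NF-κB by ubiquitin were called in 3 of 13 genes, with Traf1 highest at 0.43 log2 units, and without shDCLK1 library 1 there were 4 higher and 2 lower. Over all kept genes 44.8% were called.

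Among receptors upstream of these kinases, most Toll-like receptors were higher, where 20.7% of all kept genes were. Toll-like receptors were higher in 7 of 8 kept genes and lower in 0 (median 0.50). Tlr7, a sensor of single-stranded RNA in endosomes, was at 7.65, 7.2 and 7.06 against 22.12, 22.53 and 23.85 FPKM (1.52 log2 units). Tlr3 was at 0.630 ± 0.06 against 3.16 ± 0.161 FPKM. It passed the filter through the shDCLK1 libraries alone, so it had to differ. Tlr4 was at 4.88, 4.84 and 4.96 against 7.79, 8.55 and 8.04 FPKM (0.63 log2 units, adjusted p = 2.00e-05). Adaptors and kinases of the TLR4 pathway were higher in 7 of 14 and lower in 2 (median 0.15), with 1 lower without control library 1 or 3. The inhibitory kinase Irak3 was higher by 0.88 log2 units and Myd88 by 0.26, and Traf6 was at -0.20. Among inflammasome genes 7 of 12 were higher and 1 lower. Casp4 (caspase-11), which binds intracellular LPS, went from 5.35 ± 0.243 to 13.4 ± 1.06 FPKM, and Casp1 from 13.8 ± 1.33 to 24.2 ± 1.08. Nlrc4 was the lower gene, at -0.44 log2 units.

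Macrophage surface and phagocytic genes were also higher, set here against 20.7% higher and 24.2% lower over all kept genes. Scavenger receptors and C-type lectins, which bind modified lipids and microbial sugars, were higher in 13 of 13 kept genes (median 0.66). Of the 13, 1 passed the filter through the shDCLK1 libraries alone, so it had to differ. Msr1 was at 5.37, 6.25 and 6.39 against 29.32, 30.86 and 29.12 FPKM (2.14 log2 units, SE 0.0603, adjusted p = 3.30e-08). Clec7a (dectin-1) was at 5.49, 4.87 and 4.77 against 17.68, 18.41 and 17.47 FPKM (1.64 log2 units), and Cd36 at 122 ± 2.39 against 197 ± 5.79. Fc and paired immune receptors were higher in 17 of 20 and lower in 1 (median 0.54). Siglec1 and 1 other of the 20 passed the filter through the shDCLK1 libraries alone, so these 2 had to differ. Siglec1, a sialic acid receptor induced by interferon, was near silence in control libraries, at 0.22, 0.35 and 0.25 FPKM, and reached 4.01, 4.02 and 4.57 (2.03 log2 units). The lower gene, Cd300lf, was at 6.04 ± 0.305 against 2.30 ± 0.187 FPKM (-1.10). General macrophage markers were higher in 13 of 16 (median 0.46), yet their sizes differed widely: Csf1r, the receptor of the macrophage growth factor, was higher by 0.11 and Itgam (CD11b) by 0.63. Adgre1, the F4/80 antigen, was the lower gene, at 14.4 ± 0.558 against 9.83 ± 0.506 FPKM (-0.51, adjusted p = 6.40e-05). Of 8 Ms4a genes in the table, tetraspan membrane proteins, 3 were kept, and 2 of these passed the filter through the shDCLK1 libraries alone, so their differences are given as values. Ms4a6d was at 0.05, 0.32 and 0.33 against 4.68, 4.04 and 4.29 FPKM, and Ms4a6c at 1.08 ± 0.0964 against 7.44 ± 0.574. Of 8 complement genes 6 were higher and 1 lower, with the receptors C3ar1 and C5ar1 higher by 0.63 and 0.67. C5ar1 was 1 of 2 complement genes that passed the filter through the shDCLK1 libraries alone, so it had to differ.

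Most lysosomal genes were higher by smaller amounts, where 20.7% of all kept genes were higher and 24.2% lower. In the lysosomal list and in the LXR list, 1 gene each passed the filter through the shDCLK1 libraries alone. Of 48 lysosomal enzymes and membrane proteins 33 were higher and 3 lower (median 0.26), and of 17 subunits of the proton pump that acidifies lysosomes 15 were higher and 1 lower (median 0.22). Grn (progranulin) was at 117.97, 122.79 and 122.62 against 323.09, 297.12 and 306.31 FPKM (1.34 log2 units, adjusted p = 3.31e-08). The proteases Ctsb and Ctsd were higher by 0.79 and 0.66, and the sterol carrier Npc2 by 0.76. Of 11 LXR targets and lipid efflux genes 8 were higher and 0 lower (median 0.39), with the transporter Abcg1 at 11.5 ± 0.163 against 22.4 ± 0.430 FPKM and the lipid droplet protein Plin2 at 14.4 ± 0.725 against 25.6 ± 0.398. Integrin and adhesion genes were higher in 11 of 17. Cd24a had the largest difference among them, 13.4 ± 0.885 against 49.4 ± 1.46 FPKM, and Itgb5 was the lower one, at 24.5 ± 0.240 against 14.2 ± 0.359. Of the phagocyte NADPH oxidase, 6 of 10 genes were higher, led by its catalytic subunit Cybb, from 91.6 ± 1.42 to 175 ± 5.96 FPKM. Slc11a1 (NRAMP1), a metal exporter of phagosomes, went from 13.4 ± 0.762 to 29.8 ± 0.429 FPKM.

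Transcription factors differed in both directions, set here against 20.7% higher and 24.2% lower over all kept genes. In the immediate-early and the lineage lists, 1 gene each passed the filter through the shDCLK1 libraries alone. Of 24 immediate-early and AP-1 factors 15 were higher and 3 lower (median 0.30). Myc was at 0.96, 0.93 and 1.02 against 4.04, 3.63 and 4.73 FPKM (1.38 log2 units), Klf4 at 11.39, 12.42 and 11.02 against 30.79, 28.25 and 28.99, and Fosl1 at 2.69 ± 0.0666 against 7.50 ± 0.300. Of 14 macrophage lineage factors 8 were higher and 2 lower. Bhlhe40 and Cebpa were higher by 1.3 and 1.26 log2 units, and Spi1 (PU.1) was not called, at 191 ± 7.26 against 205 ± 12.9 FPKM (adjusted p = 0.143). Id proteins bind E-protein factors and keep them off DNA. In a list of Id proteins, E-protein factors and related genes 8 of 13 were lower and 2 higher (median -0.23). Id3 (Entrez Gene ID 15903) was at 26.49, 27.67 and 29.12 against 1.97, 1.94 and 1.93 FPKM. Its difference was -3.29 log2 units (SE 0.0484, adjusted p = 1.37e-09), and its mean was 14.3-fold lower. On the log2(FPKM + 1) scale no other kept gene was farther from 0 in either direction. By ratio of means some genes of low level differed more, among them Ms4a6d (18.6) and Siglec1 (15.4), both higher. Id1 was lower too, at 2.83, 3.24 and 2.57 against 1.04, 1.24 and 1.17 FPKM (-0.85 log2 units). Id2 was at -0.33.

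Beside Id3, the other 11 genes with the largest called differences below 0, at a mean of 5 FPKM or more and with no overlap, belonged to no single family. Car2 (Entrez Gene ID 12349), a carbonic anhydrase, was at 131.88, 136.70 and 135.08 against 41.82, 40.61 and 41.54 FPKM (-1.68 log2 units, SE 0.0299, adjusted p = 2.75e-09). Slc7a7, the light chain of a cationic amino acid transporter, was at 14.41, 13.48 and 14.79 against 6.00, 5.84 and 5.76 FPKM (-1.15). Ptgs1 (cyclooxygenase-1) was at 27.94, 27.47 and 28.52 against 12.68, 12.25 and 12.52 FPKM (-1.10). The means of these genes were 2.24 to 3.26 times as high in control cells, with library values far from touching. Lrrc32 (GARP), which holds latent TGF-β at the cell surface, was at 31.3 ± 1.15 against 14.2 ± 0.312 FPKM. Ifi27, although named as interferon-induced, was lower, at 88.7 ± 2.48 against 43.5 ± 1.49 FPKM (-1.01, adjusted p = 1.42e-07). Dmwd, Smagp, Tmem181a and Gstp1 were at -1.03, -1.03, -1.0 and -0.97 log2 units. Tmem181a has near-identical copies, so its reads are uncertain. The small RNA genes Mir5125 and Snord104 were noisier, and the call of Mir5125, at 11.6 ± 1.56 against 4.53 ± 2.85 FPKM, was lost without control library 1 or 2 (adjusted p = 0.0530 and 0.0598).

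Most proliferation genes were lower, the majority by small amounts. Of 43 DNA replication genes 34 were lower and 2 higher (median -0.20), and of 40 mitosis and spindle genes 31 were lower and 1 higher (median -0.17), where 24.2% of all kept genes were lower. Mcm2, a subunit of the replicative helicase, was at 94.19, 91.96 and 92.38 against 72.63, 69.62 and 75.15 FPKM (-0.35 log2 units, adjusted p = 7.19e-05). The polymerase subunit Pole was at 17.6 ± 0.684 against 13.1 ± 0.291 FPKM (-0.40). Cenpf, a kinetochore protein, was at 8.85, 11.61 and 11.27 against 4.59, 6.69 and 6.20 FPKM (-0.77, adjusted p = 0.00156), the largest of the mitotic differences. Library 1 was the lowest of its line in both groups for Cenpf and for Kif20b. The lower replication calls numbered 26 to 35 under the alternatives and the mitotic ones 24 to 32, with both medians below 0 in each. G1 genes were mixed, 9 of 22 higher and 5 lower. Myc, which drives growth, had the largest difference of this list, from 0.970 ± 0.0458 to 4.13 ± 0.556 FPKM. Cdkn1a (p21), an inhibitor of cyclin-dependent kinases, went from 130 ± 1.46 to 194 ± 7.98 FPKM, and Mxd1, an antagonist of Myc, from 2.39 ± 0.218 to 4.25 ± 0.116.

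Of 24 glycolysis and hypoxia genes 17 were lower and 2 higher (median -0.19, and 1 higher without any library except shDCLK1 library 1), while 39 of 43 oxidative phosphorylation genes were not called (median -0.01). Bnip3, a mitophagy receptor induced in hypoxia, was at 68.56, 62.71 and 68.13 against 39.15, 42.89 and 39.28 FPKM (-0.70 log2 units). Pdk1, the kinase that holds pyruvate dehydrogenase off, was at 21.08, 20.89 and 20.37 against 13.41, 13.54 and 13.53 FPKM (-0.59), and the phosphofructokinase Pfkl was at -0.52. Hk3, a hexokinase of myeloid cells, went against the list, at 6.81 ± 0.355 against 13.7 ± 0.579 FPKM. For these lists and the ribosomal genes below, the shares over all kept genes were 24.2% lower and 20.7% higher. Of 53 cytosolic ribosomal protein genes 35 were lower and 0 higher (median -0.15). That count was 15 after quantile normalization, where the median was -0.03, 15 without the filter and 22 without shDCLK1 library 3. Rps12 was at 1778.57, 1833.19 and 1777.43 against 1614.67, 1467.56 and 1463.65 FPKM (-0.25 log2 units), and Rpsa and Rps20 were at -0.27 and -0.33.

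Stress and lipid genes showed modest differences, set here against 20.7% higher and 24.2% lower over all kept genes. Of 30 genes of the integrated stress and unfolded protein response 16 were higher and 4 lower (median 0.14), with Ddit3 (CHOP) at 43.2 ± 0.773 against 68.4 ± 2.44 FPKM and Ddit4, an mTORC1 inhibitor, at 23.6 ± 1.75 against 14.1 ± 0.588. NRF2 targets were called in 9 of 18, 5 higher and 4 lower, near the share of all genes, and Slc7a11, the cystine transporter, was highest at 0.61 log2 units. Cholesterol synthesis genes were higher in 8 of 23, led by Idi1 at 26.9 ± 0.791 against 47.3 ± 2.75 FPKM, and fatty acid synthesis genes split 3 higher and 3 lower of 16, or 1 lower without control library 1, no more than the share of all genes. Of 28 actin and cell shape genes 12 were higher and 3 lower, with the cross-linker Actn1 at 5.22 ± 0.144 against 11.5 ± 0.199 FPKM and Vim at 258 ± 4.56 against 375 ± 7.92. Among proteases and osteoclast genes, Plaur (the urokinase receptor) was higher by 0.76, the sheddase Adam10 was at -0.70 and Tcirg1, a pump subunit of osteoclasts, was higher by 0.67. Apoptosis regulators split 6 and 6 of 21, with 3 lower without control library 1 or shDCLK1 library 3: Cflar and Bcl2l2, which protect cells, were higher by 0.64 and 0.62, and among genes that promote death Bbc3 (PUMA) was higher by 0.45 and Bmf was at -0.52.

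By absolute level, the largest gains were in Ifitm3, Lyz2, Ftl1, Spp1, S100a4 and B2m and the largest losses in Fth1, Ptma, Rplp1, Pkm, Rps12 and Rpl4. Spp1 (osteopontin) was at 263.33, 262.45 and 282.04 against 598.19, 611.38 and 597.46 FPKM (1.16 log2 units, adjusted p = 6.79e-08), and B2m, the light chain of class I, at 451.07, 433.79 and 455.25 against 705.00, 689.29 and 670.29 (0.62). The ferritin chains parted: Ftl1 (light) was higher by 0.21 and Fth1 (heavy) was at 3696.77, 3693.88 and 3902.97 against 3153.58, 2954.07 and 2813.52 FPKM (-0.34, adjusted p = 0.00105). After quantile normalization Fth1 was at -0.05 (adjusted p = 0.335), and Rplp1 and Pkm, lower at -0.20 and -0.16 as deposited, came to 0.03 and 0.04. Single libraries also decided calls near the threshold: Pkm lost its call without control library 1 (adjusted p = 0.0539), Ptma without shDCLK1 library 3 (adjusted p = 0.0515) and Rplp1 without control library 3 or shDCLK1 library 2 or 3 (adjusted p from 0.0598 to 0.0650). Genes found in 1 line alone among the untreated libraries were small RNAs, whose short length makes their FPKM coarse. Snord42b was at 5.71, 11.63 and 8.49 FPKM and Snord99 at 13.55, 5.52 and 5.37 in control libraries, both listed at 0 in each shDCLK1 library. Snord38a was at 4.63, 2.35 and 2.34 FPKM in shDCLK1 libraries and listed at 0 in controls. After LPS Snord42b, Snord99 and Snord38a were each found in both lines, with wide spreads. Control against shDCLK1 values were then 4.70 ± 5.90 against 4.69 ± 3.21 FPKM for Snord42b and 1.79 ± 3.10 against 1.78 ± 1.54 for Snord99. For Snord38a they were 2.31 ± 0.0153 against 2.31 ± 2.32. Mir130c, at 7.14, 0 and 6.64 FPKM in untreated shDCLK1 libraries and 0 in controls, had LPS means of 0.653 in control and 0 in shDCLK1 cells.

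Lymphocyte, fibroblast and epithelial markers were near silence, and some dendritic cell markers were expressed. The highest value in any library was 0.44 FPKM over 11 lymphocyte markers, 0.27 over 9 fibroblast markers and 0.40 over 6 epithelial markers, and none was kept. Their sums ran from 0.88 to 0.96 FPKM in control and 0.90 to 1.14 in shDCLK1 libraries for lymphocyte markers, and from 0.18 to 0.53 and 0.28 to 0.53 for fibroblast markers. Of 8 neutrophil and mast cell markers 3 were at 0 in all 6 libraries and 1 was kept and not called. Of 8 dendritic cell markers 3 were kept and 2 higher, Bst2 (tetherin, itself interferon-induced) at 120 ± 1.24 against 321 ± 19.8 FPKM and Siglech at 10.1 ± 0.840 against 13.3 ± 0.355. Polyadenylated histone genes, which vary with RNA quality and cell cycle, counted 4 of 10 higher and 1 lower (median 0.08), or 0 lower without control library 1 or 3 or shDCLK1 library 2 or 3, and their part in the other results was not tested.

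The LPS-treated libraries, which the resting comparison did not use, showed where the difference between the lines held and where it changed. In a fit over 12 libraries and 11052 genes, 34.3% of genes were higher and 14.3% lower in shDCLK1 than in control cells after LPS, and the difference changed between states, by an interaction term, in 49.4%. Of the 186 genes higher at rest by 1 log2 unit or more, 87 were higher after LPS and 43 lower, and the interaction was called in 171, below 0 in 167. A gene chosen for a high resting difference tends to show a smaller one elsewhere, and the interaction contains the resting difference, so these counts are a description. In the 10 interferon-related lists the median difference went from 1.09 at rest to 0.00 after LPS, with 32 genes higher and 33 lower. Ifit3, at 1.73 ± 0.356 against 14.1 ± 0.242 FPKM at rest, was at 443 ± 1.98 against 438 ± 13.3 FPKM after LPS (interaction -2.49, SE 0.0965, adjusted p = 1.41e-09). Oasl2 came to 222 ± 6.18 against 225 ± 2.52 FPKM. In these genes the levels were close in the lines after LPS and apart before it, while 65 of the 102 genes still differed after LPS in one direction or the other.

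Other genes differed in the same direction in both states. Lyz2 after LPS was at 206 ± 4.87 against 966 ± 43.0 FPKM, a difference of 2.22 log2 units (interaction -0.49), and Siglec1 at 7.19 ± 0.260 against 36.6 ± 0.930 FPKM (2.20, interaction 0.17, adjusted p = 0.0883). Hk3, C3ar1, Tlr4, Ifi27 and Bnip3 were of this kind too, and no interaction was called for them. The lysosomal list had a median of 0.26 at rest and 0.27 after LPS. The line difference of proliferation genes turned over. In the 83 replication and mitosis genes its median went from -0.20 to 0.68. Of these, 80 were higher in shDCLK1 than in control cells after LPS and 0 lower, and the interaction was above 0 in 80. Mcm2 after LPS was at 7.38 ± 0.300 against 12.4 ± 0.166 FPKM, far below its resting means of 92.8 and 72.5 FPKM. Pole, Cenpf and Kif20b were also lower after LPS than at rest in both lines, with Cenpf at 0.453 against 1.37 FPKM. Such differences after LPS lay between low levels. Id3 and Car2, lowest at rest, changed as well. Id3 came to 39.9 ± 1.79 against 36.3 ± 1.58 FPKM (interaction 3.15), and Car2 to 32.8 ± 0.919 against 143 ± 2.78 (interaction 3.77), so that Car2 was higher in shDCLK1 cells after LPS. H2-Aa, higher at rest, was lower after LPS, at 22.5 ± 0.434 against 8.24 ± 0.598 FPKM.

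**Figure D4:**
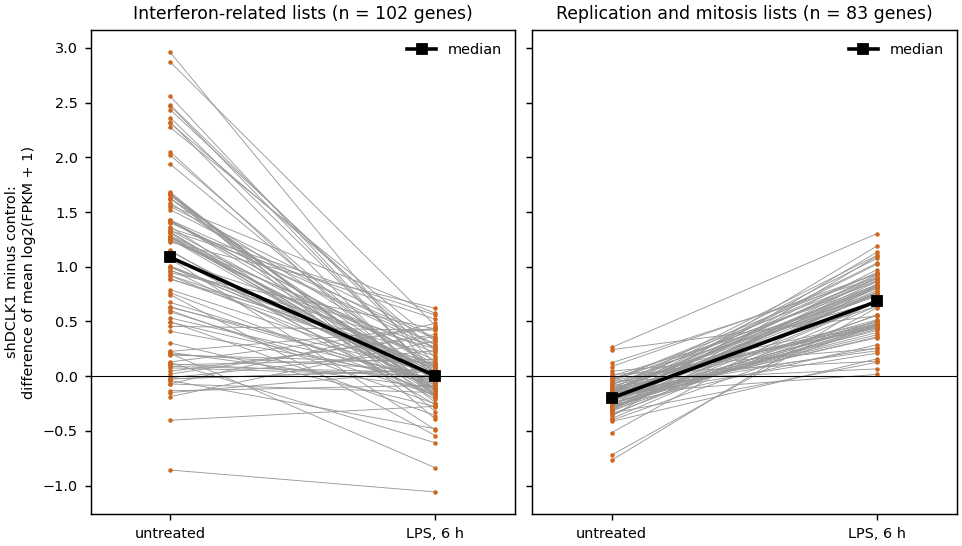
Difference of mean log2(FPKM + 1), shDCLK1 minus control, untreated and after 6 h of LPS, in the 102 genes of the interferon-related lists (left) and the 83 genes of the replication and mitosis lists (right). Thin lines join the values of a gene and squares mark medians, which go from 1.09 to 0.00 on the left and from -0.20 to 0.68 on the right.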

How the data were processed

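RNA from RAW264.7 cells was sequenced as paired-end poly(A) libraries on an Illumina NovaSeq, per the labels' protocols. The authors deposited 1 table of FPKM per gene with 2 decimals; counts were not analysed here. Tools listed in the submitters' processing notes are StringTie 1.3.0, HISAT2 2.0 and Bowtie 0.12.2, and builds are mm9 and mm8, without their roles. The annotation, filters and use of strand are not given in the sources used here, nor are read totals, so counting error is unknown and replicate spread alone gives the precision (median SE 0.0501 log2 units).

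Groups follow the sample titles. The filter asked for 1 FPKM in at least 3 of the 6 untreated libraries. The scale was log2(FPKM + 1) and the fit used limma 3.58.1 (R 4.3.3) with moderation along a mean trend. P-values are two-sided and adjusted by Benjamini-Hochberg over 10634 genes, with calls under 0.05. Differences with LPS come from a fit over 12 libraries. Ratios divide mean FPKM. Before use the fit was tested on simulated data. Figures were drawn with matplotlib 3.10.9 (Python 3.11.15).

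Symbols turned into dates were restored for 27 genes by Entrez Gene ID, and 18142 IDs were found in a RefSeq table of GRCm38.p6, 17406 with the same symbol. A column without a name was not used. Genes were named by rule: the DCLK family and Ikbkb, the 12 largest called differences in each direction at a mean of 5 FPKM or more with no overlap, the 6 largest FPKM gains and losses, genes of at least 2 FPKM in 1 line and at most 0.1 in the other, and up to 4 called members of each list; others are named as seen after their values. Not all are printed. The comparison and its 61 gene lists were chosen with earlier results of these data known. Alternatives varied the pseudocount, filter, scaling, trend, replicate block, libraries in the fit and each library left out. Near-identical genes (Apol9a and Apol9b, Lyz1 and Lyz2, Ifit3 and Ifit3b, Oas1a and Oas1g, Tmem181a and its copies, H2 genes) are uncertain.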

Additional observations from a re-analysis of the deposited data

Results flagged for a closer look

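The difference between the lines after LPS was set against the resting one, with an interaction term in limma over 12 libraries, for the 24 genes with the largest resting differences. It was called in 22 of them. These genes were chosen on the resting difference, which the interaction contains, so a shift towards 0 is expected of some. The 12 genes highest at rest all had values below 0 (log2 units, difference after LPS minus difference at rest). The values were -2.54 for Apol9b, -2.94 for Oasl2, -2.37 for Apol9a, -2.41 for Trim30a, -2.55 for Lilrb4a, -2.58 for Zbp1, -2.36 for Ifitm3, -2.49 for Ifit3, -2.55 for Ifi44l and -2.27 for Rsad2. The lysozymes changed least, with -0.49 for Lyz2 and -0.35 for Lyz1.

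Of the 12 genes lowest at rest, 10 had called values above 0, all but Mir5125 and Ifi27. Car2 had the largest value, 3.77, and its difference changed sign, as did those of Dmwd (2.86), Ptgs1 (1.87), Tmem181a (1.29) and Snord104 (1.85). Id3, with 3.15, came close to equal levels after LPS but was still called lower by limma, at -0.14 log2 units (adjusted p = 0.0249). Slc7a7 had 0.99, Gstp1 0.64, Lrrc32 0.48 and Smagp 0.41, and these genes too were still lower in shDCLK1 cells after LPS, Slc7a7 at -0.16.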

How the results depend on the processing

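Of 230 named genes with a value, 215 kept direction and call under every alternative that tested them, and 15 did not. The filter of 5 FPKM left 34 of them untested. The number of genes called was 4769, and 3976 to 4449 with 1 library left out (1915 to 2092 higher and 2061 to 2357 lower). Genes past 1 log2 unit were then 178 to 191 higher and 19 to 25 lower. With a pseudocount of 0.1 they were 296 higher and 37 lower, with 0.01 they were 307 and 46, and with a filter of 5 FPKM 12 were lower. Under quantile normalization Rplp1 came to 0.0349 (adjusted p = 0.378) and Pkm to 0.0375 (adjusted p = 0.449), and the cause was not tested. Over all kept genes the replicate numbers did not pair the libraries: same-numbered deviations correlated at -0.0584, -0.136 and 0.0118. Single genes could still share a feature, as library 3 was the highest of both lines for Ccl5, Acod1 and Il1b. The replicate block gave 4343 calls (2051 higher, 2292 lower), without Ikbkb (adjusted p = 0.0734) and Atp5e (adjusted p = 0.0521). The share of calls that were higher was 46.1% as deposited, 52.2% at equal sums, 52.3% with median-of-ratios scaling and 41.4% with quantile normalization. The list medians of NF-κB subunits, urokinase, G1, oxidative phosphorylation, histone and apoptosis genes lay near 0 and changed sign under some settings. Leaving out single libraries moved small counts in lists, beside those given with the results. Oxidative phosphorylation genes lower numbered 3, 7 without shDCLK1 library 1 and 1 without control library 3 or shDCLK1 library 3. Cholesterol synthesis genes lower numbered 2, 0 without any control library or shDCLK1 library 2 and 1 otherwise. The 1 higher mitotic gene, Ndc80, lost its call without control library 1 or 2 or shDCLK1 library 1 or 2. In 8 other lists a lower count of 0 or 1 grew by 1. Depth is unknown, so genes near 1 FPKM carry an error that was not measured.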

Other observations

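Some genes that sit side by side on a chromosome differed together. Runs of at least 3 adjacent kept genes, all past 0.7 log2 units in the same direction (a size chosen after the values were seen), numbered 12 and held 43 of 10611 genes with a position. In shDCLK1 cells 11 runs were higher and 1 lower. Neighbours were read from RefSeq gene order in GRCm38.p6. Many runs are families of related genes, so reads shared between copies can add to them. The Phf11 genes were such a run outside the lists: Phf11a was at 1.61 against 7.00 FPKM, Phf11b at 1.60 against 8.63 and Phf11d at 5.80 against 21.9. Another run held Isg15 with its neighbours Agrn and Plekhn1, which are not of its family, higher by 0.80 and 0.89 log2 units. The run lower in shDCLK1 cells was Dmwd, Dmpk and Six5, at -1.03, -0.74 and -0.75 log2 units. No chromosome stood apart as a whole: medians of the 20 chromosomes ran from -0.05 to -0.00 log2 units.

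Several genes outside the lists were higher by more than 2 log2 units, named after their values were seen. Bcar3, an adaptor of integrin signalling, was at 3.85 ± 0.262 against 22.6 ± 1.61 FPKM, and Sdc3 (syndecan-3) at 3.53 ± 0.286 against 20.2 ± 0.643. Cst7, an inhibitor of cathepsins, was at 1.63 ± 0.463 against 10.9 ± 0.795 FPKM. Pmp22, a tetraspan membrane protein, was at 8.29 ± 0.305 against 40.3 ± 1.01 FPKM, and Gpnmb, a lysosomal glycoprotein of macrophages, at 1.73 ± 0.191 against 10.1 ± 0.180.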
